A study of Mus musculus with 4 samples.

Results

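The 8 genes described here encode the reactive oxygen and nitric oxide enzymes of the colonic epithelium with their partners: Duox2, Duoxa2, Nox1, Noxo1, Noxa1, Cyba, Nos2 and Gpx2. They were chosen by name, out of 21631 protein-coding genes on the 19 autosomes and the X chromosome, and every called summit inside such a gene or within 1 kb of it was taken. To these were added the regions over 1 kb from every protein-coding gene end whose nearest end, within 100 kb, belonged to such a gene. Both rules together gave 31 of the 113404 called regions. The data are bulk ATAC-seq, an assay of chromatin open to the Tn5 transposase, from colonic organoids, cultures of the epithelium alone, of WT mice. Colitis organoids and control organoids were each treated with 10 µM T-5224 or with 0.1% DMSO, all for 24 h, which gave 4 groups. T-5224 blocks the transcription factor AP-1. Colitis organoids came from mice that had chronic colitis, control organoids from healthy ones, and the study asked how blocking AP-1 changes the binding of transcription factors. Each group held 1 library. All 4 cultures were grown with EGF, Noggin, R-spondin and Wnt conditioned medium, and all carry the same batch label. The values available were those of 1 peak list for the series, so neither T-5224 and DMSO nor colitis and control were compared, and no p-value is given.

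Epithelial oxidases release superoxide or hydrogen peroxide at the gut surface, where these species act on microbes and as signals in wound repair. DUOX2, the dual oxidase, makes hydrogen peroxide and needs DUOXA2, its maturation factor, to leave the endoplasmic reticulum. NOX1, the main superoxide-forming oxidase of the colon, works with the membrane partner p22phox (Cyba), the organiser NOXO1 and the activator NOXA1. Inducible nitric oxide synthase (Nos2) makes nitric oxide from arginine, and GPX2, the gastrointestinal glutathione peroxidase, removes hydroperoxides.

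All 8 genes had a called summit, and the strongest ones lay at the starts of Noxa1, Noxo1, Gpx2 and the Duox2 and Duoxa2 pair. Nox1 and Nos2, the genes of the NOX1 catalytic subunit and of inducible nitric oxide synthase, had the weakest. The background rate was high: 74.5% of all protein-coding genes had a summit inside or within 1 kb, and 8 of 8 is read against that share. Nox1 counts only by its outer bounds, as no summit lay within 1 kb of its RefSeq start. The measure used is the authors' fold enrichment at the summit, a linear ratio over a single expected background for the whole genome. Noxa1 had the highest value, 34.9-fold (counting interval 31.1 to 39.1). Noxo1 had 27.1-fold (23.8 to 30.8), Gpx2 23.8-fold (20.6 to 27.2), and Duox2 and Duoxa2 share 1 summit of 21.2-fold (18.3 to 24.5). Cyba had 11.9-fold (9.76 to 14.5), Nox1 8.46-fold (6.65 to 10.6) and Nos2 5.10-fold (3.72 to 6.83). In that order the intervals of Noxa1 and Noxo1 did not overlap, nor did those of the Duox pair and Cyba, while the other neighbours in the order had overlapping intervals. The intervals are exact Poisson 95% intervals of the pileup at the summit and cover counting error only.

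**Figure D1:**
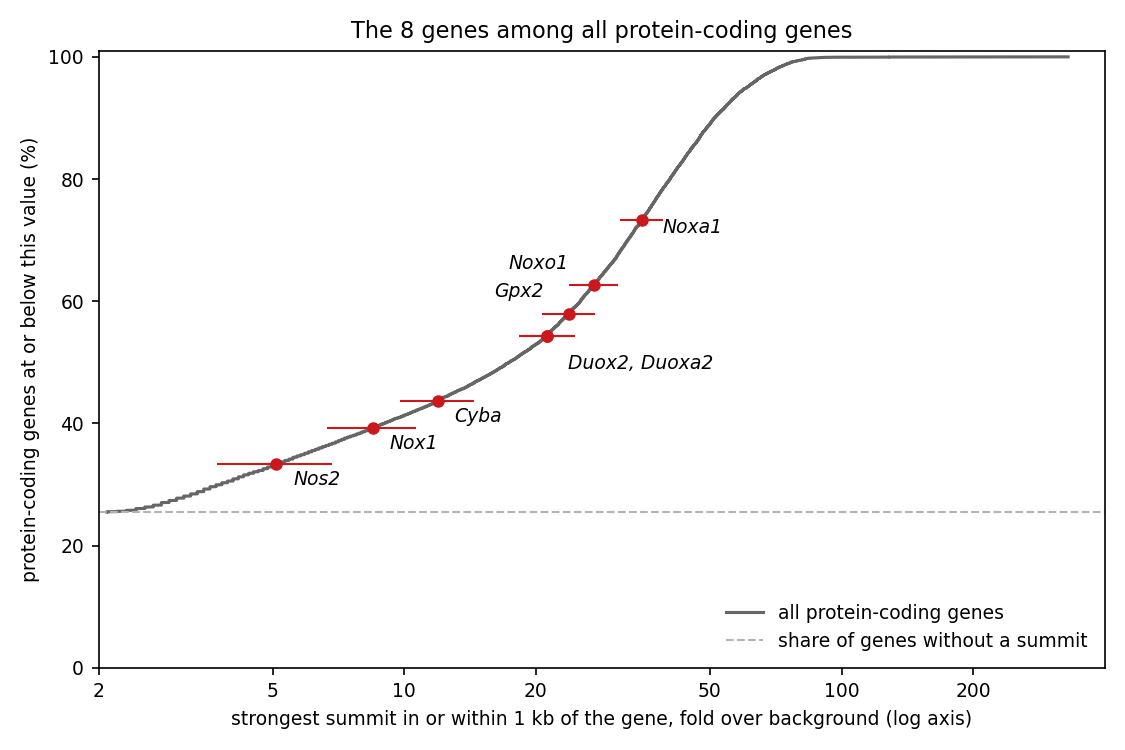
Cumulative share of all protein-coding genes (y axis, percent) against the strongest summit inside or within 1 kb of the gene (x axis, fold over background, log axis). Red points are the 8 genes with their counting intervals; they run from the 33.3rd percentile (Nos2) to the 73.2nd (Noxa1), and the dashed line is the share of genes with no summit.

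Set against all protein-coding genes, those without a summit included, these values run from the 33.3rd to the 73.2nd percentile. The median strongest fold was 21.2 over the 8 genes and 17.4 over all protein-coding genes, with genes lacking a summit at 0. Over only those protein-coding genes that had a summit, as all 8 did, the median was higher, 27.1-fold. A value of at least 20-fold was reached by 5 of the 8 genes, against 47.1% of all, a limit chosen after the values were seen. Among these 5, Duox2 and Duoxa2 count with the 1 summit they share, which also gives the 21.2-fold median. Noxo1 counts with a summit it shares with Gfer. Noxa1 stood at the 73.2nd percentile, Noxo1 at the 62.7th, Gpx2 at the 58.1st, Duox2 and Duoxa2 at the 54.4th, Cyba at the 43.7th, Nox1 at the 39.2nd and Nos2 at the 33.3rd. Since long genes have more chances of a summit, each gene was also placed among genes of like length (within 1.5 times its own). Of 4082 genes of like length, 18.5% had a lower value than Nos2, and of 3547, 23.8% had a lower value than Nox1. The share with a lower value was 70.3% of 2718 genes for Noxo1, 73.8% of 3863 for Noxa1 and 68.1% of 2206 for Gpx2. It was 63.6% of 2572 genes for Duoxa2, 46.9% of 4847 for Duox2 and 46.1% of 3691 for Cyba. In bulk chromatin a region open in few cells and one weakly open in all cells cannot be told apart.

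The dual oxidase Duox2 and its maturation factor Duoxa2 lie head to head, and the summit sits between them. Duox2 (NCBI Gene 214593, minus strand) spans chromosome 2, 122279246 to 122298740, and Duoxa2 (66811, plus strand) spans 122298900 to 122302885. The gap between their outer bounds is 159 bp, and the 21.2-fold summit lies at base 84 of it, 76 bp before the RefSeq start of Duoxa2 and 597 bp before that of Duox2. The called region, 122297604 to 122299347, is 1744 bp wide (92.6th percentile of all regions) and covers both starts. The gap is shown on the Duoxa2 strand because it holds the summit; capitals mark a TATA box (TATAAA) and GC boxes (GGGCGG, here on the other strand), all read from RefSeq on GRCm38.p6.
Duoxa2, chr2:122298741-122298899, plus strand: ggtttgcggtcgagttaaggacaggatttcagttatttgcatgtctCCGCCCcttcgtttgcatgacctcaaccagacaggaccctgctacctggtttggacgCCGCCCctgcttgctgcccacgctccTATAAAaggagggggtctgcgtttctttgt
The TATA box begins 30 bases before the Duoxa2 start. Beside the gap, inside the outer bounds of Duox2, lie the only letters matching TGANTCA, the AP-1 pattern, in any of the 7 promoters searched. They are shown in capitals in a 29-base stretch.
Duoxa2 upstream site, chr2:122298721-122298749, plus strand: gtgtgaatgtgTGAATCAgaggtttgcgg
The match lies 89 bp from the summit and has A at the free position, whereas AP-1 is known to prefer C or G there. TGANTCA occurred in 7.04% of 21045 coding promoters of 300 bases.

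Apart from the shared summit both genes had low to middle-ranking summits. Duox2 had a second summit in the same region, 4.29-fold at 384 bp after its start (43.0th percentile of all called regions). It had 1 of 3.01-fold at its 3′ end (21.4th percentile). Regions covered 7.25% of the Duox2 body (61.6th percentile of all protein-coding genes) and 48.9% of the much shorter Duoxa2 body (95.3rd percentile). Duoxa2 had summits of 4.29-fold and 6.03-fold in its 3′ part and 7.30-fold just past its 3′ end, where Duoxa1 also lies within 1 kb. These 3 stood at the 43.0th, 57.6th and 64.1st percentile of all called regions ranked by their strongest summit. In or within 1 kb of the gene, the paralogue Duox1 had 24.8-fold (21.6 to 28.4) at a summit it shares with Shf, and that interval overlaps the one of the Duox2 and Duoxa2 summit. Duoxa1, the partner of DUOX1, had 8.12-fold (6.34 to 10.2) by the same measure. Within 1 kb of the RefSeq start, Duoxa1 had 4.75-fold and Duox1 had no summit.

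**Figure D2:**
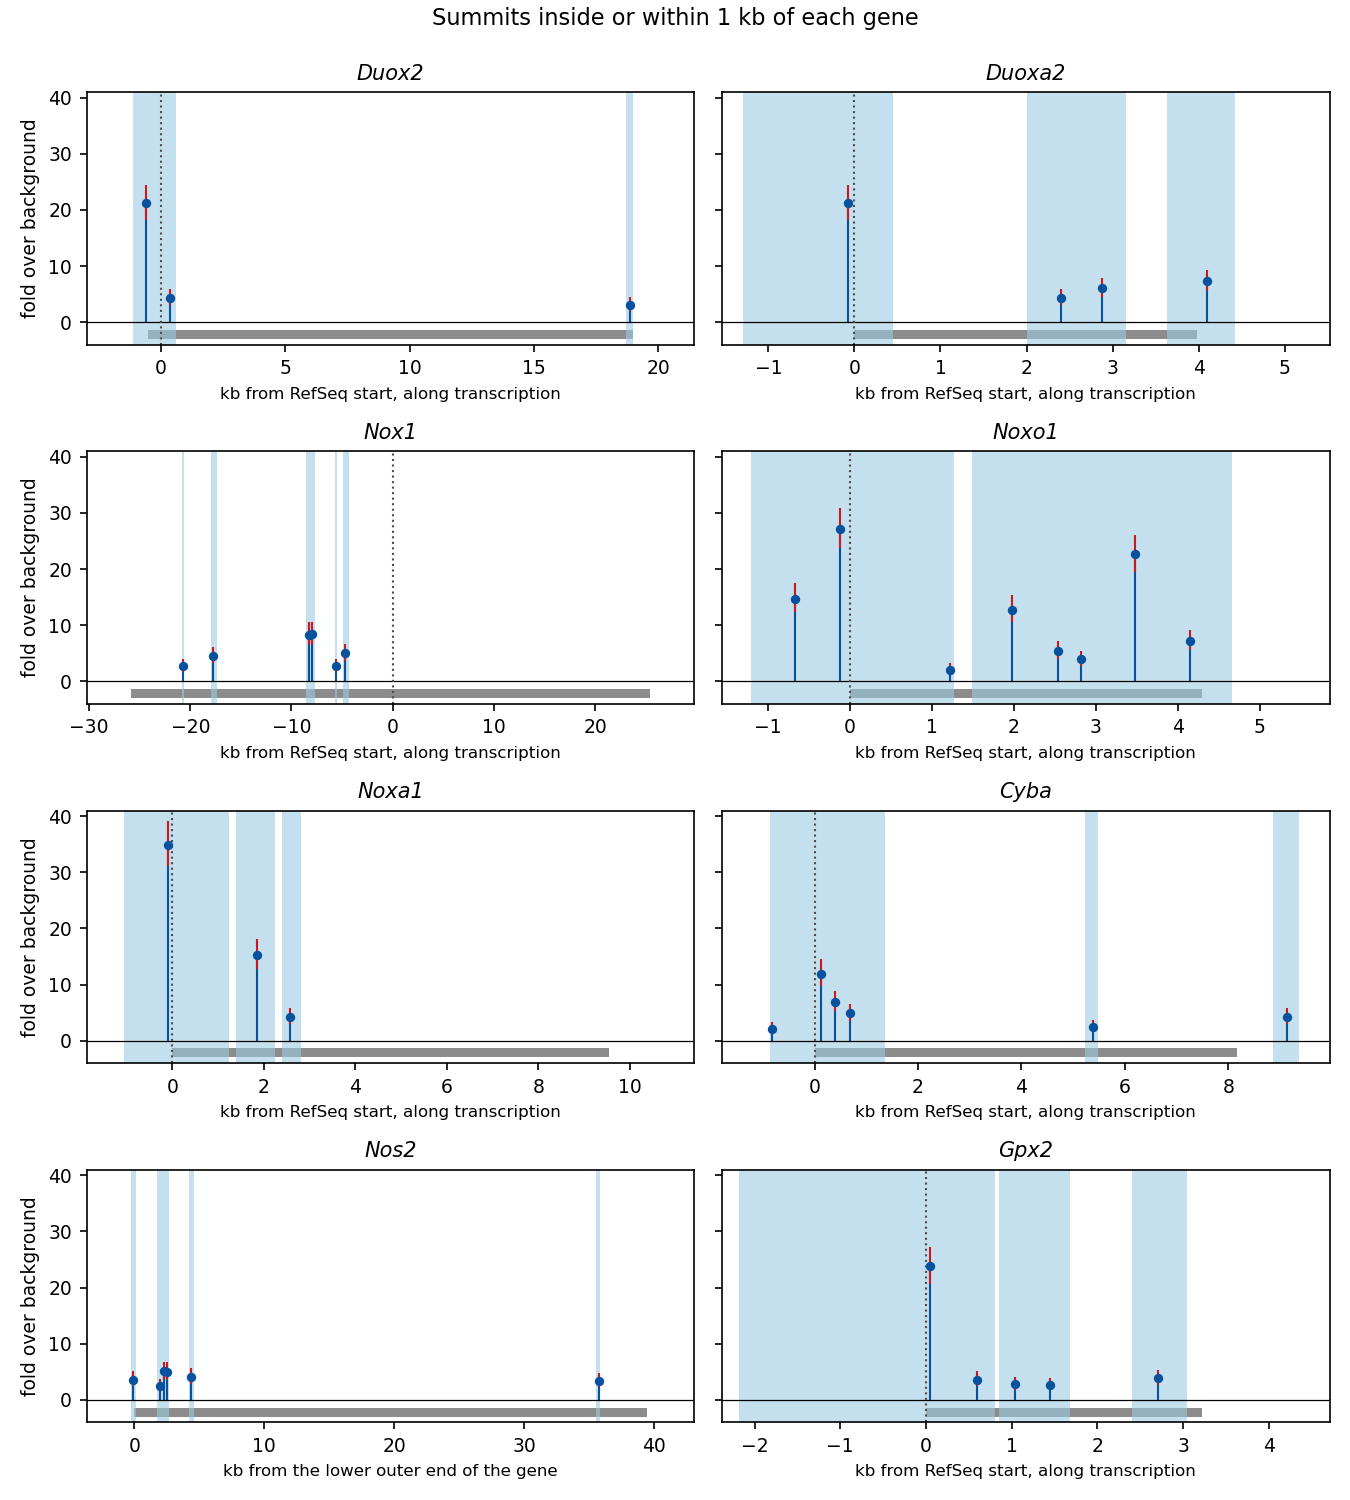
Every summit inside or within 1 kb of each gene, as fold over background (y axis) against distance in kb (x axis) from the RefSeq start (dotted line) along transcription, or from the lower outer end for Nos2. Points are summits, red bars are counting intervals, blue bands are called regions and grey bars are the outer bounds of the gene; Nox1 has no summit at the dotted line, while Noxa1 and Gpx2 have their strongest summit beside it.

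The genes of the NOX1 complex differed among themselves by a wide margin. Noxa1, the activator subunit, had its 34.9-fold summit 92 bp before its start, within a 2288 bp region, 25093967 to 25096254 on chromosome 2. No other protein-coding gene lies within 1 kb of that summit, and Noxa1 (241275, minus strand) spans 25085667 to 25095205. Within the gene, summits of 15.3-fold (12.8 to 18.1) and 4.29-fold followed at 1853 bp and 2563 bp after the start. The 250 bases before the start lay wholly in the called region and held none of the 8 motifs searched.
Noxa1, chr2:25095206-25095455, minus strand: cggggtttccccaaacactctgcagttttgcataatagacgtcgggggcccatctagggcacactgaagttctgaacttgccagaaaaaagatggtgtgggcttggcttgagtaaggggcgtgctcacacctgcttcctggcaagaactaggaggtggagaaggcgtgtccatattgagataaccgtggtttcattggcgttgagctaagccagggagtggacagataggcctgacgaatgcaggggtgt
The summit is at base 159 of this stretch. Noxa1 was also assigned the most regions away from gene ends among the 8 genes, namely 7. The strongest, 21.8-fold (18.8 to 25.1) at 25083261 to 25084366, lies inside the neighbour Entpd8, which has its own 33.2-fold summit within 1 kb of its start. Of the other 6, 3 lie in the noncoding gene Gm13387, at 29.3 to 32.2 kb from Noxa1, and the strongest of these reached 9.85-fold.

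Noxo1, the organiser subunit, sits in an almost continuous open stretch. Noxo1 (71893, plus strand) spans chromosome 17, 24696234 to 24700530. Called regions covered 94.9% of its body, at the 99.0th percentile of all protein-coding genes, not matched for length. Noxo1 had 8 summits in 2 regions of 2479 bp and 3171 bp, more summits than 94.8% of genes of like length. The 27.1-fold summit lay 120 bp before the Noxo1 start. It was inside Gfer, which runs the other way, 42 bp after the Gfer start. By the 1 kb rule the value is counted for both genes. The gap between Gfer and Noxo1 is 77 bp; its letters are shown for the GC box in capitals.
Noxo1, chr17:24696157-24696233, plus strand: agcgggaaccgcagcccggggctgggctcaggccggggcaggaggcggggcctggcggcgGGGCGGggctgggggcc
Farther into the gene a summit of 12.8-fold lay 1982 bp after the start. One of 22.6-fold (19.6 to 26.0), inside Noxo1 at 3482 bp after its start, is within 1 kb of Tbl3, which lies 122 bp past the end of Noxo1.

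Cyba, the gene of p22phox that also serves the phagocyte oxidase, had a moderate value at its start. Its 11.9-fold summit lay 128 bp after the start, with 6.84-fold and 4.87-fold summits at 396 bp and 679 bp, all within 1 region of 2212 bp, 122431584 to 122433795 on chromosome 8. Cyba (13057, minus strand) spans 122424771 to 122432940. The outer end of Mvd is within 1 kb of the strongest summit, but the RefSeq start of Mvd is 10.6 kb away and has 67.0-fold. The 250 bases before the Cyba start are shown for the pair of GC boxes next to the start, at 24 and 6 bases before it.
Cyba, chr8:122432941-122433190, minus strand: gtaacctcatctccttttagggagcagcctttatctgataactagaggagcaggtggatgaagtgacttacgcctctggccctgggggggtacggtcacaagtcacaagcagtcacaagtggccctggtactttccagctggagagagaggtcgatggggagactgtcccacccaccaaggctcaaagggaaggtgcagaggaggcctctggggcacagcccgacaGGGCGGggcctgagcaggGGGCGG

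Nox1, which encodes the catalytic subunit, had no summit at its RefSeq start. The nearest one lay 4739 bp before it and had 4.99-fold. Nox1 (237038, minus strand) spans X chromosome bases 134086421 to 134137711, with the RefSeq start at 134111854, so the outer bounds reach well upstream of it. All 6 summits, in 5 regions, lay in that upstream stretch, between 4739 bp and 20717 bp before the start. The strongest were a pair in 1 region, 134119527 to 134120429, with 8.46-fold and 8.35-fold at 7989 bp and 8272 bp before the start. The others were 4.52-fold and, in 2 regions, 2.67-fold. No summit lay in the gene after that start. The 250 bases before the start contain no called base and none of the motifs searched.
Nox1, chrX:134111855-134112104, minus strand: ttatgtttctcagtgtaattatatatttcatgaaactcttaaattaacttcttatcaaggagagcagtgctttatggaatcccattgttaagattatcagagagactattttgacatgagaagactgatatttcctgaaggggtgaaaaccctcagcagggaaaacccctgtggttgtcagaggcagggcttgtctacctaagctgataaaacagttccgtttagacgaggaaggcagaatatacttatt
On the X chromosome 45.4% of 966 genes had a summit, against 75.9% of 20665 on the autosomes, while the median region fold was 5.10 on the X chromosome and 4.99 on the autosomes. Whether copy number or the choice of genes on the X chromosome bears on the Nox1 values was not tested.

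Nos2, inducible nitric oxide synthase, had the weakest values of the 8 genes. Nos2 (18126) spans chromosome 11, 78920787 to 78960226. A summit of 3.59-fold (2.46 to 5.08) lay 123 bp outside its lower outer end. The region with the highest value, 78922543 to 78923440, held summits of 2.43-fold, 5.10-fold and 4.99-fold at 1998 bp, 2299 bp and 2500 bp inside that end. A further region had 4.06-fold at 4395 bp, and 1 near the other end had 3.36-fold. All 6 summits were thus near or below the median region of the list, 4.99-fold. In the 20 kb on either side of the gene there was 1 further summit beyond 1 kb, of 2.43-fold, in Lgals9.

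Gpx2, the epithelial glutathione peroxidase, had a strong summit at a start without a single CpG. Gpx2 (14776, minus strand) spans chromosome 12, 76792335 to 76795554, and the 23.8-fold summit lies 52 bp after the start, in a region of 2985 bp (76794751 to 76797735, 98.4th percentile of width). Called regions covered 70.8% of this short gene body, at the 97.7th percentile of all protein-coding genes, not matched for length. The other 4 summits in the gene ranged from 2.67-fold to 3.83-fold. Upstream, beyond 1 kb, the same region held summits of 5.91-fold and 11.5-fold, at 1031 bp and 1714 bp before the start. The 250 bases before the start lay wholly in the region; they are shown for the absence of CpG.
Gpx2, chr12:76795555-76795804, minus strand: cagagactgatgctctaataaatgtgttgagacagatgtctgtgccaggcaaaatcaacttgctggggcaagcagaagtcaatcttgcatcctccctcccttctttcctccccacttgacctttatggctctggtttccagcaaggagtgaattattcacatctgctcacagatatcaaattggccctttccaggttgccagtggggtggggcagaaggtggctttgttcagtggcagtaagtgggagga
Among coding promoters with no CpG in 300 bases, 64 of 938 (6.82%) had a summit within 1 kb of the start, and 12 (1.28%), Gpx2 included, reached the value of Gpx2. This comparison was chosen after the Gpx2 sequence had been read.

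CpG content varied widely among the 7 genes matched in the RefSeq promoter table, all but Nos2, and 6 of the 7 starts had a summit within 1 kb, against 63.6% of all coding starts. The ratio of observed to expected CpG in the 300-base promoter (250 before and 50 after the start) was 0 at Gpx2, 0.19 at Nox1, 0.34 at Cyba, 0.41 at Noxa1, 0.44 at Duox2, 0.79 at Duoxa2 and 1.01 at Noxo1. Over all 21045 starts, a summit was found at 16.1% of the lowest 20% of starts by this ratio, at 36.0%, 76.7% and 93.5% of the next 3 groups of that size, and at 95.9% of the highest. A value of at least 20-fold was found at 3.14% of the lowest group, which holds Gpx2, and at 10.3% of the next, which holds Nox1, Cyba and Noxa1. Gpx2 and Noxa1 thus had stronger summits than most starts of their groups, whereas Noxo1 lies in the highest group, where 76.2% reached 20-fold. Noxa1 lies close to the upper limit of its group, a ratio of 0.417, and in the group above it 44.2% of starts reached 20-fold. Genes can have several starts in this table, and starts that lie close share a summit.

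**Figure D3:**
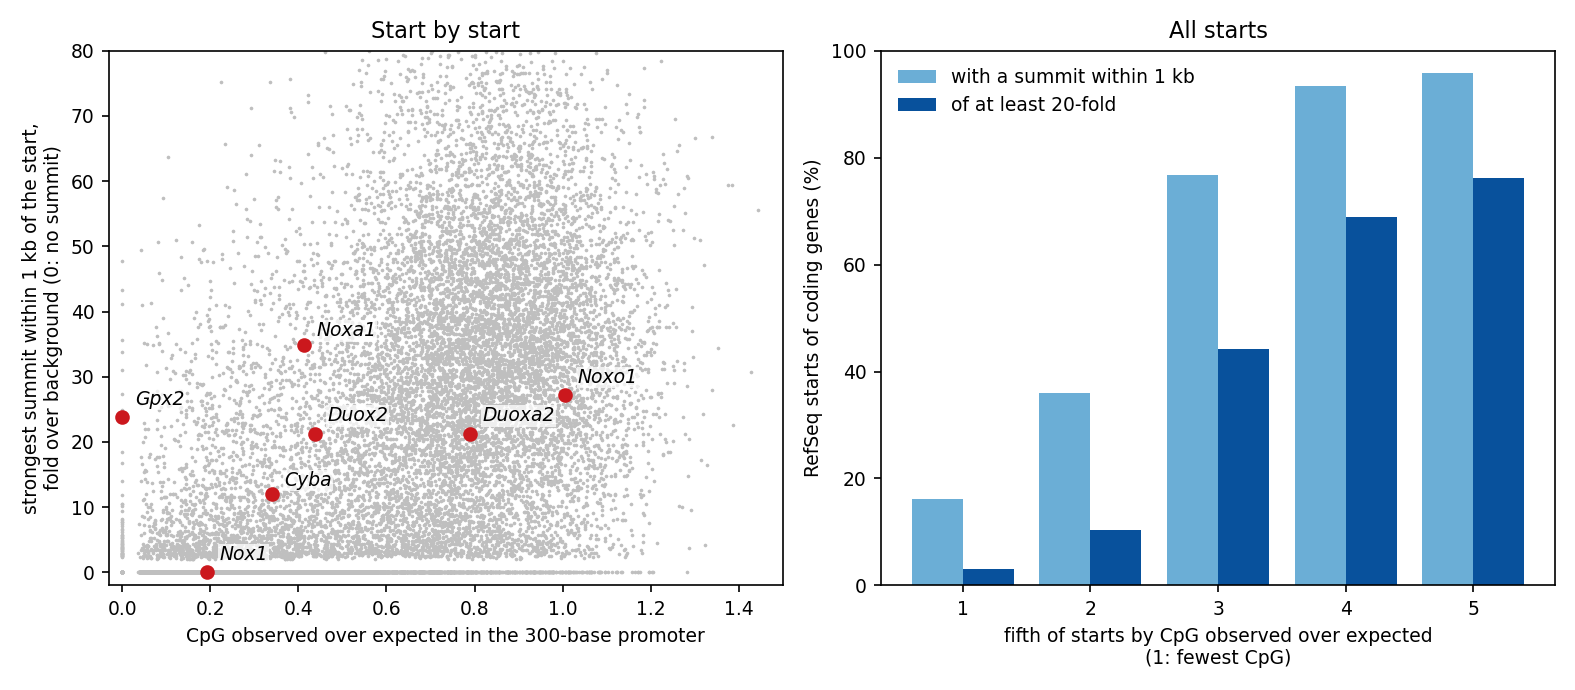
Left, strongest summit within 1 kb of each RefSeq coding start (y axis, fold over background, 0 without a summit) against observed over expected CpG of its promoter (x axis, a ratio), with the 7 matched genes in red; 94 starts beyond 1.5 or 80-fold are not drawn. Right, percent of starts with a summit (light bars) and with at least 20-fold (dark bars) in 5 equal groups of starts by CpG ratio, with 95.9% and 76.2% in the highest group.

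Other motif letters were counted in the same 7 promoters. Searched on both strands over 300 bases, the cyclic AMP element TGACGTCA, the antioxidant response core TGACNNNGC, the STAT element TTCNNNGAA, and single forms of the NF-kB and HNF1 motifs matched none of the 7. Their shares among all 21045 coding promoters were 2.26%, 13.0%, 7.76%, 0.43% and 0.06%, in the order given. TATAAA matched 1 of 7 (Duoxa2), with 12.7% of all, and GGGCGG matched 3 of 7 (Duoxa2, Noxo1 and Cyba), with 46.7% of all. Over 7 promoters these counts are read against those shares and do not set the genes apart. TGANTCA and TGACNNNGC can overlap. No match says only that these letters are not in this window.

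Away from gene ends the 8 genes were close to all protein-coding genes in how many had a region and in its fold. There were 20 such regions near 6 of the 8 genes, where 69.6% of all protein-coding genes had at least 1. The median was 1 region per gene for the 8 and 2 for all, and the median fold was 4.29 against 4.64 over all 86425 assigned regions. Of the 20, 8 lay above that 4.64-fold, as did 42410 of the 86425. Noxa1 had 7, Nox1 and Nos2 had 5 each, Duoxa2, Cyba and Gpx2 had 1 each, and Duox2 and Noxo1 had none. Of the 20 regions, 13 lay inside the gene itself and 3 between genes. Of all 40 summits in or within 1 kb of the 8 genes, 23 (57.5%) were under 5-fold, against 51.1% of all summits in the list.

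Related genes of the same chemistry were described from lists of pathway members. The phagocyte oxidase genes were low: 2 of 4 had a summit and their median, zeros included, was 1.74-fold. Ncf4 had 3.71-fold and Ncf1 3.48-fold, and Cybb, the phagocyte catalytic subunit, and Rac2 had none. Of 8 other oxidase genes 6 were marked by a summit (median over the 8, 20.8-fold). Rac1, the GTPase that NOX1 also uses, had 44.1-fold, the scaffold gene Sh3pxd2a 42.4-fold and Cybc1, a chaperone of the phagocyte oxidase, 32.3-fold, while Nox3 and Nox4 had none. All 16 genes of nitric oxide and arginine metabolism had one, with a median of 27.4-fold. The highest were the argininosuccinate lyase gene Asl (43.7-fold), Pts, of the synthesis of the nitric oxide synthase cofactor (43.4-fold), and Nosip (41.7-fold). The 5.10-fold of Nos2 lay below the lowest value of that list, 5.22-fold at Arg1, but by 1 step of the fold scale, and the counting intervals (3.72 to 6.83 for Nos2 and 3.82 to 6.96 for Arg1) overlap almost wholly.

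Genes that remove peroxide and superoxide were mostly strongly marked. A summit was present at 18 of 20 such genes, whose median was 29.4-fold. The thioredoxin reductase gene Txnrd1 had 61.2-fold, the mitochondrial peroxiredoxin gene Prdx3 59.1-fold and the thioredoxin gene Txn1 58.7-fold, and Sod3 and Gpx8 had none. Among 3 secreted peroxidase genes 2 had one, and the median was 2.55-fold: Lpo with 4.06-fold and Mpo with 2.55-fold, and Epx had none. The medians of these lists stand beside 17.4-fold over all protein-coding genes, and the counts with a summit beside 74.5%.

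**Figure D4:**
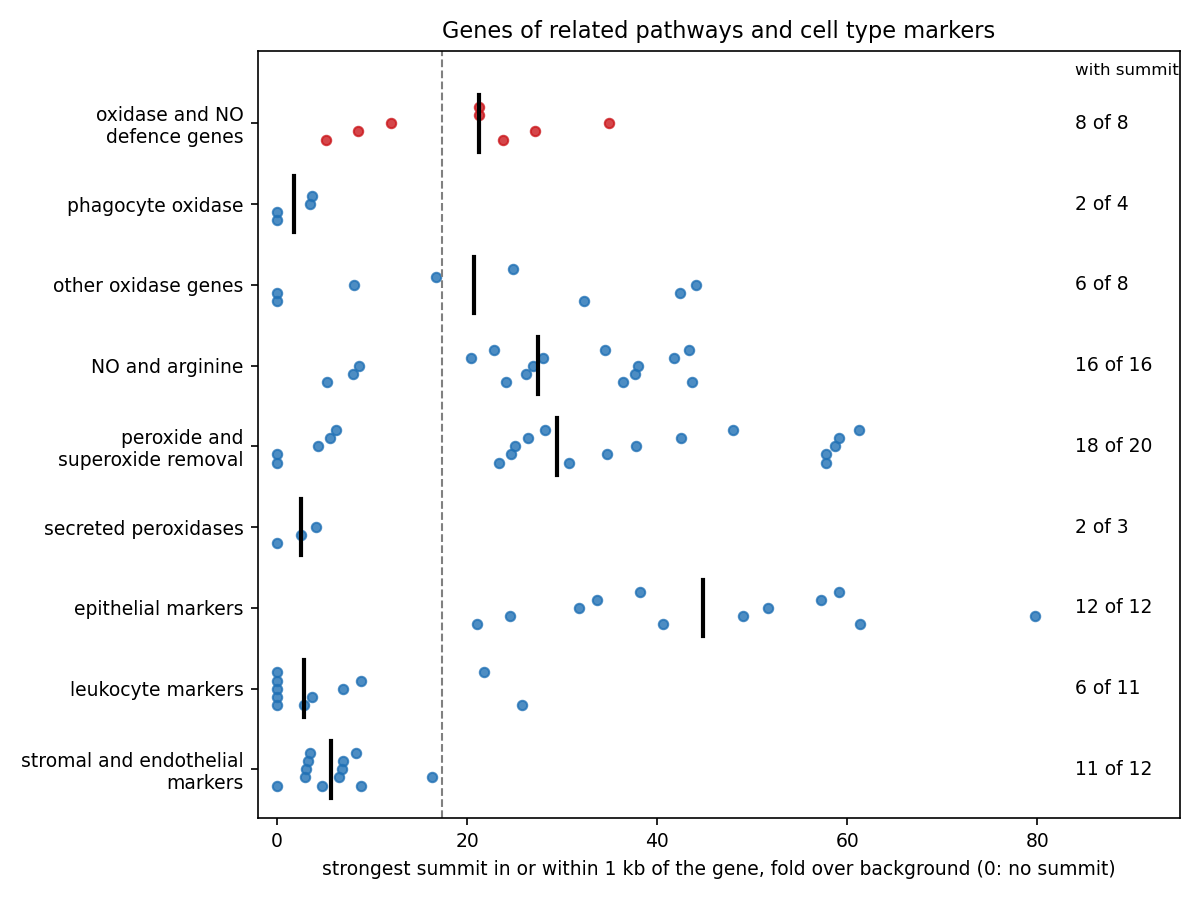
Strongest summit inside or within 1 kb of each gene (x axis, fold over background, 0 without a summit) for the 8 genes (red, top row) and for the pathway and marker lists (blue). Black bars are medians, the dashed line is the median of all protein-coding genes (17.4-fold), and the number with a summit stands at the right; phagocyte oxidase, secreted peroxidase and leukocyte genes lie mostly near 0.

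The labelled tissue was checked on marker genes. All 12 markers of colonic epithelium had a summit; their median was 44.8-fold, with the highest values at Elf3 (79.8-fold), Cldn7 (61.3-fold) and Krt8 (59.1-fold). Among 11 leukocyte markers 6 had one; their median was 2.78-fold with a range from 0 to 25.7-fold (Spi1), and Ptprc, Cd3e, Cd79a, Lyz2 and S100a9 were without one. Cd68 had 21.8-fold, at a summit it shares with Eif4a1, and Cd4 had 8.81-fold at one it shares with Gpr162. A summit was found at 11 of 12 stromal and endothelial markers, whose median was 5.62-fold and at most 16.3-fold (Col1a1), followed by Pdgfra with 8.81-fold and Cdh5 with 8.35-fold; Col1a2 had none. The counts of the marker lists stand beside 74.5% of all protein-coding genes with a summit, and their medians beside 17.4-fold. By count, the stromal and endothelial list (11 of 12) was close to the epithelial list (12 of 12). Their medians lay apart, at 5.62-fold and 44.8-fold. Cyba and Nos2 are also used by phagocytes, and the part of other cells in their values was not tested.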

How the data were processed

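The authors aligned and called peaks with Bowtie2 and MACS2 on mm10, per the submitters' processing notes, which list no versions; thresholds, duplicate handling and which of the 4 libraries entered the call: not given in the sources used here. It held 157922 summits. The deposited fold is a linear ratio of pileup plus 1 over background plus 1: all fold values were whole multiples of 1 step (tolerance 0.01), and with a background of 7.63 a Poisson tail matched the authors' −log10 p for pileups under 100 (largest deviation 6.03e-06). The authors' score column repeats −log10 q multiplied by 10 and truncated. The lowest called pileup was 17. Library depth is unknown. A single background means that copy number and mappability were not divided out.

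Genes and starts came from RefSeq tables on GRCm38.p6, which shares coordinates with mm10; the starts cover 17274 coding genes. Outer gene bounds include predicted transcripts. A region was placed by its strongest summit. Percentiles split ties. All 86 other listed genes were found; a few further genes of these lists are not reported here and are in no count or median. The rule for naming took all 8 genes, the 3 highest of each list, and those without a summit where they were 5 or fewer; Arg1, Duox1, Duoxa1 and all neighbours were named after their values were seen. The 8 genes and the lists were chosen with earlier results of these data known. The counting was tested by adding artificial summits of known place and fold to the peak list. Only the assignment of summits to genes and the distance to gene ends were checked this way. Motifs at summits were not analysed here. Analyses used Python 3.11.15, numpy 2.4.6, pandas 2.3.3 and scipy 1.17.1. Alternatives tried were other windows, distances, gene sets and minimum values.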

Additional observations from a re-analysis of the deposited data

How the results depend on the processing

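All 8 genes kept a summit under each of the 4 other settings tried: inside the gene only, a 2 kb window, a −log10 q of at least 10, and at least 5-fold. At Nox1 every summit counts as inside only by the outer bounds, which reach well upstream of its RefSeq start. The share of all protein-coding genes with a summit was 69.6%, 75.5%, 69.4% and 66.9% under these settings. Counting only inside the gene lowered the strongest fold to 4.29 at Duox2, 6.03 at Duoxa2, 22.6 at Noxo1 and 15.3 at Noxa1, since their strongest summits lie just before the gene. The other 4 genes did not change under either window or the −log10 q minimum. With a −log10 q of at least 10, a summit remained for 0 phagocyte oxidase genes, 1 secreted peroxidase gene and 7 stromal and endothelial genes, and 12 regions away from gene ends were left, against 20. The other ways of assigning regions gave 15 to 27; the 27, by the nearest RefSeq start, was chosen after seeing the data. At least 30-fold, also chosen then, was reached by 1 of the 8 genes, against 33.6% of all protein-coding genes. No paired analysis was possible because the 1 peak list holds no value per library. The motif search at summits was not run. A count was taken as kept when within 1.5 times the main count, and a fold or a share of genes when inside the 95% interval of the main value. By these limits 59 of 72 alternative values were kept and 13 moved.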

Other observations

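Strong regions that the rules assigned to none of the 8 genes lie close to several of them. The strongest within 20 kb of Cyba was the 67.0-fold summit at the start of Mvd, 10.6 kb away, and the start of Il17c, an epithelial cytokine gene next to Cyba, had 33.9-fold. Near Duox2, a region on chromosome 2, 122266161 to 122267435, had 21.9-fold (18.9 to 25.3), 12.7 kb from the gene, and its nearest gene end is that of Sord. That value is about as high as the summit shared by Duox2 and Duoxa2, and the counting intervals overlap. Near Gpx2, a region inside Rab15 at chromosome 12, 76804740 to 76806407, had 24.2-fold (21.1 to 27.7), 10.3 kb away, which overlaps the interval of the Gpx2 start. The 4 RefSeq starts of Rab15 lie 18.4 to 27.0 kb from the Gpx2 summit and had at most 9.16-fold. No summit lay within 20 kb outside the bounds of Nox1.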
